A study of Acipenser ruthenus with 35 samples.

Results

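Section C is the middle of 5 sections in order from the animal pole (A) to the vegetal pole (E) of a single oocyte of the sterlet (Acipenser ruthenus). Each oocyte was cut into thin slices, which were pooled in order into 5 sections with the same number of slices. Each library holds 1 such section (TOMO-Seq). A section of a big oocyte therefore spanned a longer stretch of the axis than one of a small oocyte. All libraries labelled section C were taken, 7 of the 35 in the series: 3 from big oocytes (oocytes 1, 2 and 3, size 2100, 1920 and 2010 µm, advanced vitellogenic) and 4 from small oocytes (oocytes 5, 6, 7 and 8, size 1320, 1380, 1440 and 1500 µm, early vitellogenic). No oocyte was treated. All big oocytes came from 1 female and all small oocytes from another, and more RNA went into each big library than into each small one according to the methods of the study, so stage, female and RNA input cannot be told apart in any comparison here. The replicates are therefore single cells of 1 animal, and p-values measure the spread between such cells. The study had screened its sections by RT-qPCR and sequenced an oocyte if the markers ran smoothly along the axis.

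An oocyte in vitellogenesis takes up yolk and stores maternal RNA for the embryo. Much of this RNA lies at 1 end of the cell, and the ends later give different tissues and, at the vegetal end of the sturgeon egg, the germ plasm that founds the germ line. The nucleus of the growing oocyte, the germinal vesicle, moves from the middle towards the animal pole as the sterlet oocyte grows. The middle section can therefore meet the nucleus in a small oocyte and miss it in a big one. Which transcripts changed in the middle, and which of them changed there in another way than along the rest of the axis, is what the comparison of big and small section C addresses.

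The identifiers are contigs of a transcriptome assembly, and 3 of them are paired with a gene by the primer list of the study. These markers are exd2, an exonuclease gene (TRINITY_DN53171_c2_g1_i1_1), slc44a3, of a family of choline transporter-like proteins (TRINITY_DN46825_c2_g1_i1_1), both read as markers of the animal end, and dnd1 (dead end, TRINITY_GG_79323_c2_g1_i2_1), an RNA-binding protein needed by primordial germ cells and a germ plasm transcript of the vegetal end. The study's RT-qPCR primers, printed 5′ to 3′ because they alone tie these contigs to a gene name, were as follows.
exd2 forward: gtgttggtggaaagacaggaaga
exd2 reverse: gcaccggcaaccccaaa
slc44a3 forward: aggctgctcttcggctatg
slc44a3 reverse: acacctccttccgatcagtc
dnd1 forward: ggactcagaaaatggggatctccctgg
dnd1 reverse: aaacctcacagccagaggaaggggg
All other transcripts are given by identifier, where DN marks a contig assembled de novo and GG a genome-guided one. No marker of follicle cells could be read, so their presence in the sections was not tested.

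The section C libraries held 2416356 to 9380728 counts, with a median of 3848654, and the 28 libraries of the other sections 1653598 to 11348306. At a common depth of 2416356 counts, section C of big oocytes was estimated to hold 37777 ± 277 detected transcripts (SD, n = 3) and section C of small oocytes 37892 ± 406 (SD, n = 4), with no difference past the threshold by a two-sided exact permutation test (p = 0.743). The 10 most abundant transcripts took 4.53% ± 0.392 of counts in big (SD, n = 3) and 4.29% ± 0.414 in small section C (SD, n = 4, exact permutation p = 0.400). With 3 libraries against 4, the smallest two-sided p of this test is 0.0571. Log2 levels correlated between libraries of 1 stage with r of 0.971 to 0.979 and between stages with r of 0.919 to 0.935, as a description across transcripts. Counts of libraries of 1 stage differed by more than sampling noise (chi-square per degree of freedom 1.83 to 4.69), so no library was a copy of another.

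The composition of the RNA in the middle section differed widely between the stages. Of 24089 transcripts tested, 10115 (42%) passed the threshold of an adjusted p of 0.1 (edgeR quasi-likelihood test, Benjamini-Hochberg), 4979 (20.7%) higher and 5136 (21.3%) lower in big oocytes. Most changes were small: the median log2 difference was 0.55 among the higher and -0.71 among the lower transcripts. Over all transcripts tested the median absolute log2 difference was 0.32. Their signed median was 0.01, which the scaling holds near 0. Over 2-fold, 890 transcripts were higher and 1538 lower, so that 63.3% of the large changes were decreases. Over 8-fold, 60 were higher and 112 lower. The number higher over 8-fold fell to 37 without big oocyte 1 and to 36 without big oocyte 2. These counts depended on the treatment of low counts, being 580 and 794 with no filter, 28 and 64 after thinning to the smallest library, and 7 and 22 at a mean scaled count of at least 50. The libraries of the 2 stages did not overlap for 9338 transcripts (38.8%).

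**Figure D1:**
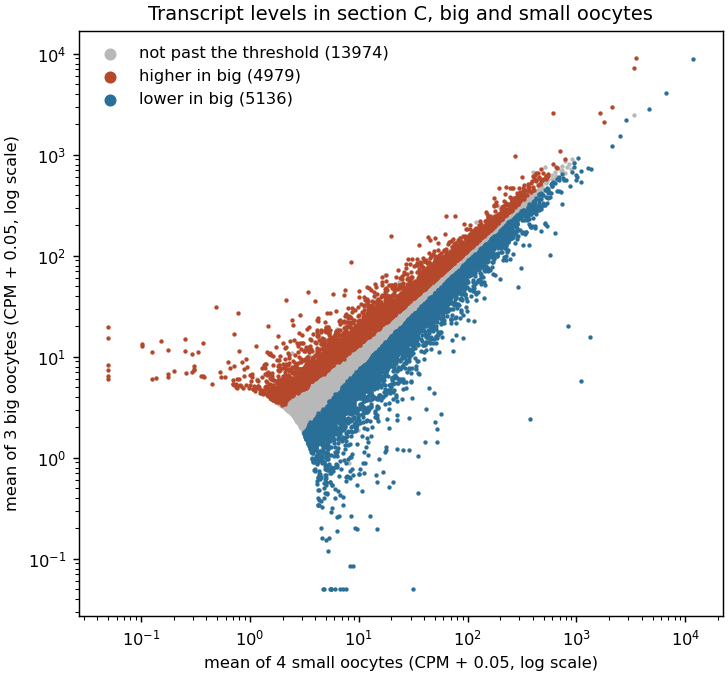
Mean level of each of 24089 transcripts in section C of 4 small oocytes (x axis) and 3 big oocytes (y axis), in CPM (counts scaled to a library of 1e+06) plus 0.05 on log scales. Coloured points passed an adjusted p of 0.1, 4979 higher and 5136 lower in big oocytes, and a group of abundant transcripts of small oocytes lies far below the diagonal.

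In terms of all counts, transcripts called higher made up 33.6% to 34.2% of the counts in the 3 big libraries and 23.8% to 24.8% in the 4 small ones, while transcripts called lower made up 21.8% to 22.1% and 31.2% to 32.6%. These shares describe the size of the call and are no further test of it. Calls were most frequent among abundant transcripts, with 31.1%, 41% and 53.9% called in the lowest, middle and highest of 3 equal classes by mean scaled count. The calls of the most abundant class were the smallest, with a median absolute log2 difference of 0.40 against 1.07 among the calls of the least abundant class. At low counts only a large difference can pass the threshold, so these medians do not give the size of change over a whole class.

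The animal markers were at the edge of detection in the middle section, whereas dnd1 was well measured. Section C of big oocytes 1, 2 and 3 held exd2 at 1.37, 2.32 and 0.826 CPM, and section C of small oocytes 5, 6, 7 and 8 at 5.68, 7.29, 8.30 and 5.62 CPM. The stages did not overlap, and exd2 was 4.30-fold lower in big oocytes (log2 difference -2.10 ± 0.34, SE, adjusted p = 7.56e-05, edgeR). It was also lower in section A, its own territory, where it averaged 259 ± 85.1 CPM in big (SD, n = 4) and 559 ± 74.6 CPM in small oocytes (SD, n = 3), a log2 difference of -1.10 ± 0.25 (SE, adjusted p = 0.0167, edgeR). A difference particular to C was not shown: the difference in C minus that in the other sections was -1.001 ± 0.66 on the log2 scale (SE, adjusted p = 0.627, edgeR).

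The other animal marker, slc44a3, was at 2.74, 2.32 and 1.24 CPM in big section C and at 1.78, 5.00, 5.23 and 4.35 CPM in small section C, where oocyte 5 lay within the range of the big oocytes. Its log2 difference of -0.85 ± 0.37 (SE) was just past the threshold (adjusted p = 0.0823, edgeR). It was lost with DESeq2 (adjusted p = 0.189), and without big oocyte 2 (0.143) or 3 (0.193) or small oocyte 6 (0.205), 7 (0.172) or 8 (0.130). These markers are a check of the section more than a finding, since oocytes were chosen by their gradients.

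dnd1 moved the other way. Its level in section C was 151, 261 and 199 CPM in big oocytes 1, 2 and 3 and 135, 112, 136 and 123 CPM in small oocytes 5 to 8, without overlap. It was 1.61-fold higher in big section C (log2 difference 0.69 ± 0.19, SE, adjusted p = 0.0332, edgeR). Along the axis the difference between stages ran from -1.85 in A and -0.65 in B through C to 1.45 in D and 1.78 in E on the log2 scale. The middle section held a difference between those of its neighbours B and D, and the contrast of C with the mean of the other sections did not pass the threshold (0.49 ± 0.22, SE, adjusted p = 0.400, edgeR). It did with the oocyte as a block (0.49, adjusted p = 0.0126).

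The transcripts ranked next had passed the threshold, and their stages did not overlap in section C. Among those with a mean scaled count of at least 100 and counts in every library of section C, the largest decrease was that of TRINITY_DN46906_c1_g1_i1_1. It was at 411, 1808, 1397 and 772 CPM in section C of small oocytes 5, 6, 7 and 8 and at 8.10, 4.63 and 4.54 CPM in section C of big oocytes 1, 2 and 3. This is 169-fold lower in big oocytes (log2 difference -7.40 ± 0.86, SE, adjusted p = 0.00195, edgeR). The small oocytes differed among themselves by several fold, and the lowest of them lay far above every big one. The rule had asked for no overlap, so only the width of this gap is an observation. The second largest decrease, that of TRINITY_DN46906_c1_g2_i1_1 (log2 difference -7.22 ± 0.83, SE, adjusted p = 0.00187), belongs to the same cluster of contigs, with 162 to 546 CPM in the small and 1.85 to 2.84 CPM in the big libraries. Related contigs can share reads, which the counting divides by estimate, so the pair is not 2 independent results.

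By the same rule (a mean scaled count of at least 100, counts in every library of section C and no overlap of the stages), the increases named were smaller than these decreases. Among all 60 transcripts over 8-fold higher, low counts included, the median log2 difference was 4.28. TRINITY_DN51606_c1_g4_i1_1 was at 85.5, 102 and 71.8 CPM in section C of big oocytes and at 6.39, 13.1, 0.615 and 14.1 CPM in that of small oocytes 5, 6, 7 and 8 (log2 difference 3.25 ± 0.50, SE, adjusted p = 0.00516, edgeR). Small oocyte 7, with 2 counts, lay below the other small oocytes, and no small library came near the big ones. TRINITY_DN49135_c0_g2_i1_1 was at 157, 204 and 107 CPM in big and 16.5 to 21.3 CPM in small section C (log2 difference 3.01 ± 0.24, SE, adjusted p = 9.43e-05, edgeR). Both were also higher in big oocytes in each of the other sections, by 2.13 to 2.93 and by 0.98 to 3.87 on the log2 scale, all past the threshold, and neither passed the contrast of C with the rest (adjusted p = 0.727 and 0.796).

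**Figure D2:**
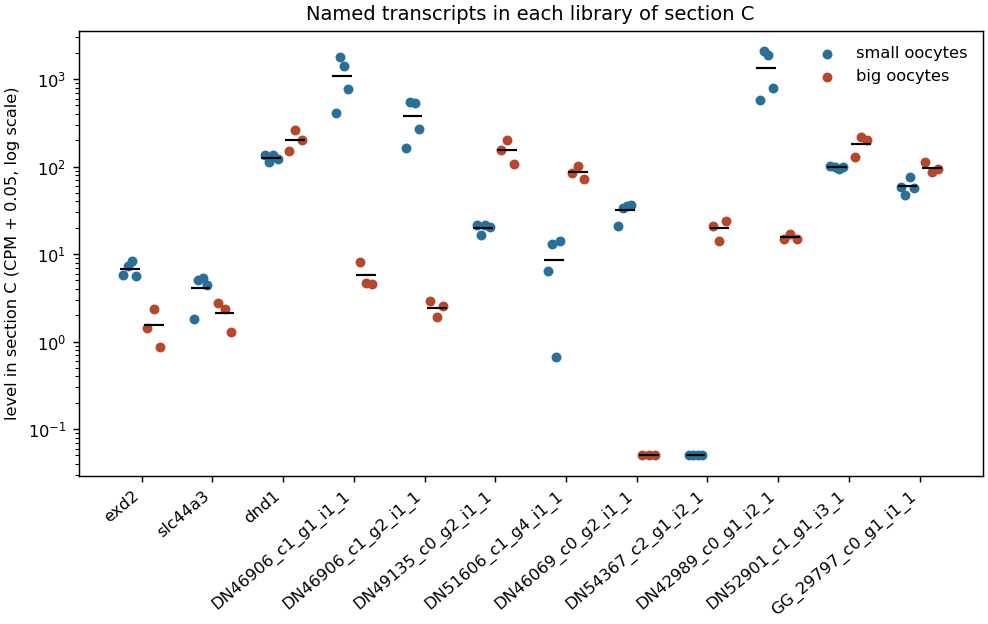
Level of the 3 marker transcripts and 9 further transcripts in each library of section C, in CPM plus 0.05 on a log scale, with 1 point per oocyte and a bar at the mean of 4 small or 3 big oocytes. Among transcripts with counts in every library, the 3 lower in big oocytes by over 80-fold are those of the DN46906 and DN42989 contigs, and 1 transcript in each stage is at 0 counts in every library.

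A few transcripts were seen in the middle section of 1 stage only. Among those tested, 11 had 0 counts in all 3 big libraries of section C and 6 had 0 counts in all 4 small ones. TRINITY_DN46069_c0_g2_i1_1 had 477 counts in small section C (21.0, 33.5, 35.04 and 36.6 CPM) and 0 in big section C, which makes it at least 174.7-fold lower, taking 3 counts over the group as the floor. TRINITY_DN54367_c2_g1_i2_1 had 317 counts in big section C (20.8, 14.1 and 23.9 CPM) and 0 in small section C, at least 96.1-fold higher by the same floor. The absence was not restricted to the middle: the other sections of small oocytes summed to 1963 counts of the first and those of big oocytes to 0, and the second had 1566 counts there in the big stage and 0 in the small stage. With 1 female per stage, a transcript absent from every section of a stage could equally be absent from that female, and these cannot be told apart.

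The transcripts called in C differed between the stages, on the median, in the same direction in the other sections. Transcripts called higher in C had median log2 differences of 0.25 in A, 0.38 in B, 0.48 in D and 0.41 in E, and those called lower had medians of -0.34, -0.51, -0.65 and -0.64, where the medians over all transcripts tested in C lay between -0.03 and 0.02. In A the middle 50% of the transcripts called lower ran from -0.82 to 0.09, so that part of the list was not lower there. In both lists the median in C was nearest to that in D and farthest from that in A. Section C shares all its oocytes with D and E but not with A and B, and the part of this in that order was not tested. The share of transcripts called was 37.9% in A, 39.2% in B, 42% in C, 48.7% in D and 49.3% in E. Sections C, D and E hold the same oocytes, whereas A and B hold big oocyte 11 and lack small oocyte 7. With the 3 complete oocytes of each stage the shares were 39.1%, 39.2%, 38.8%, 45.6% and 49%, so that C was like A and B and below D and E. In the balance of large changes C was like A and B: decreases made up 61.1%, 66.2% and 63.3% of the changes over 2-fold in A, B and C, 51.4% in D and 40.7% in E. Scaled by library totals these shares were 62.5% in C, 58.4% in D and 52.2% in E.

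**Figure D3:**
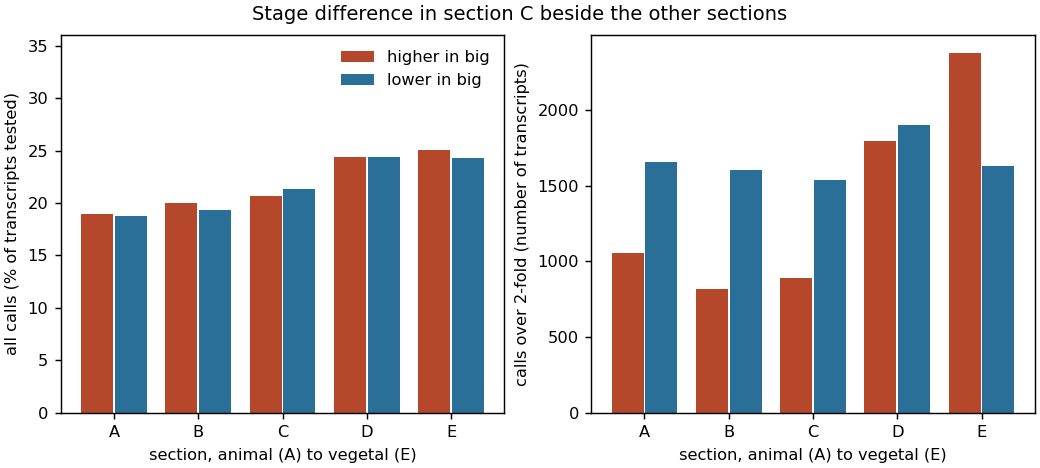
Transcripts called between stages in each section, as a percent of the transcripts tested (left) and as the number over 2-fold (right). Section C had 890 transcripts higher and 1538 lower over 2-fold, while section E had 2376 higher and 1632 lower.

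Within big oocytes, transcripts lower in C had their highest level in A more often than transcripts in general. Those higher in C had it in D and E more often and in A less often. Leaving C itself out, the section with the highest mean level in big oocytes was A for 45.8% of the 5136 transcripts called lower, against 28.3% of all transcripts tested, B for 18.7% against 23.3%, D for 9.37% against 16.6% and E for 26.2% against 31.8%. For the 4979 transcripts called higher in C, the highest section in big oocytes was A for 12.2% against 28.3% of all transcripts tested. It was B for 22% against 23.3%, D for 28.8% against 16.6% and E for 37% against 31.8%. These shares describe the lists and were not tested.

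For a small set of transcripts the difference between stages in C departed from its mean over the other sections. A transcript can pass this test without C departing from both of its neighbours. The difference between stages in C minus its mean in A, B, D and E was tested over all 35 libraries, and 368 of 24717 transcripts (1.49%) passed, of which 331 (1.34%) had a lower and 37 (0.15%) a higher difference in C (edgeR, adjusted p under 0.1). Over 2-fold the counts were 112 and 10, and over 8-fold 30 and 0. With the oocyte as a block, 520 and 157 passed, including 324 of the 331 and all 37. Against B and D alone, 37 and 0 passed, all 37 among the 331. Scaled by library totals the counts were 213 and 90, as the median contrast moved by 0.07 on the log2 scale. The number lower fell to 190, 142, 145, 158 and 199 without big oocyte 1 or 3 or small oocyte 5, 6 or 8, and the number higher to 7, 7, 10 and 12 without big oocyte 3 or small oocyte 5, 6 or 8.

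**Figure D4:**
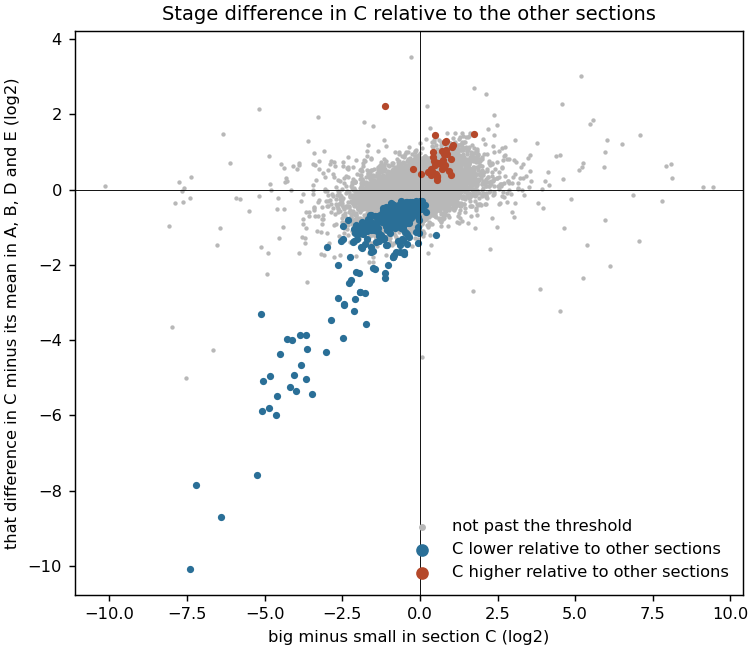
Difference between big and small oocytes in section C (x axis) and that difference minus its mean in the other 4 sections (y axis), both on the log2 scale, 1 point per transcript. The 331 blue points passed the test with a lower difference between stages in C than elsewhere, reaching -10.08, and the 37 red points with a higher one.

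Many of the 331 transcripts had their highest level in C of small oocytes, and none did in C of big ones. In small oocytes C had the highest mean of the 5 sections for 169 of them (51.1%), against 22.6% of all transcripts tested in C, and A for 129 (39%). Section C was above both neighbours B and D for 222 (67.1%), against 34.9% of all transcripts tested in C. In big oocytes C was the highest section for 0 and was above both neighbours for 3 of them, against 23.8% of all tested, and the highest section was A for 184 (55.6%) and E for 134 (40.5%). The contrast itself chose these transcripts, so these counts describe them. Their summed level in C was 26640 to 32031 CPM in small and 15348 to 17331 CPM in big oocytes. In A it was 27361 to 28478 CPM in small and 32646 to 85553 CPM in big oocytes. The highest of these values was that of big oocyte 11, which has no library of C here. Big oocytes 1, 2 and 3 were at 44973, 32646 and 37995 CPM in A.

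The 30 transcripts whose difference between stages was over 8-fold lower in C than elsewhere shared a profile in small oocytes. By mean level, C was the highest section of small oocytes and B the second for 29 of the 30. C was the highest section for 22.6% of all transcripts tested in C. Over the 30, the median ratio of B to C was 0.417 and that of D to C 0.0218. All 30 were also called lower in section C itself, against 21.3% of all transcripts tested. The contrast itself chose the 30, and its filter used mean counts in C. These counts therefore describe the 30 and are no further test. In big oocytes the 30 fell into 2 sets, a division made after the values were seen and given without a test. In 11 of them the mean levels of A and B together were over 2-fold those of D and E, and in the other 19 they were not.

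The mean sum of the set of 11 was highest in C in small oocytes and in A in big ones. In 1 of the 11 the highest section of small oocytes was A. Most of the sum in C of small oocytes came from 4 contigs, with means of 1301, 1075, 811 and 370 CPM, of which 2 belong to the DN46906 cluster. The summed level in C of small oocytes 5, 6, 7 and 8 was 1365, 5940, 4785 and 2393 CPM. In B of small oocytes 5, 6 and 8 it was 562, 1230 and 3089 CPM, so that B was above C in oocyte 8. Oocyte 7 had no library of A or B. In A of small oocytes the sum was 85.1 to 146 CPM, and in D and E 33.3 to 79.8 CPM. In big oocytes 1, 2 and 3 it was 1039, 2503 and 2671 CPM in A and 1219, 529 and 1948 CPM in B, but 62.9, 46.5 and 46.6 CPM in C. The level in big section C was thus of the same order as that in D and E of both stages. Big oocyte 11, with libraries of A and B here, stood apart with 49886 CPM in A and 5517 CPM in B. Without it, 323 and 45 transcripts passed the contrast of C with the other sections.

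The transcripts named from this set by the rule were TRINITY_DN46906_c1_g1_i1_1 and TRINITY_DN42989_c0_g1_i2_1. For TRINITY_DN46906_c1_g1_i1_1 the level in A of big oocytes 1, 2, 3 and 11 was 367, 869, 1217 and 16500 CPM, against 6.02 to 8.38 CPM in A of small oocytes. Its difference in C minus that elsewhere was -10.08 ± 1.58 on the log2 scale (SE, adjusted p = 0.000793, edgeR), and -9.18 without oocyte 11 (adjusted p = 4.45e-06). In section B the stages overlapped, at 180 to 2472 CPM in big and 175 to 906 CPM in small oocytes (adjusted p = 0.581). TRINITY_DN42989_c0_g1_i2_1 was at 572, 2072, 1865 and 802 CPM in C of small oocytes 5, 6, 7 and 8 and at 14.8, 17.1 and 14.9 CPM in C of big oocytes 1, 2 and 3. In A it was at 424, 1112, 1039 and 9637 CPM in big oocytes 1, 2, 3 and 11 and at 25.3 to 47.1 CPM in small oocytes. Its contrast was -8.70 ± 1.10 (SE, adjusted p = 5.05e-05, edgeR), and -8.14 without oocyte 11.

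The set of 19 was highest in C as a sum in small oocytes and had no such peak in big ones. Its summed level in C of small oocytes 5, 6, 7 and 8 was 295, 501, 284 and 516 CPM, that in B 112 to 229 CPM and that in D 7.32 to 15.7 CPM. In big oocytes it was 17.02 to 27.3 CPM in C and at most 107 CPM in the other sections. The fall was shared by B, where the mean sum was 168 CPM in small and 26.3 CPM in big oocytes. Outside B and C the sums were higher in big than in small oocytes, with means of 46.0 and 26.2 CPM in A, 55.6 and 10.4 CPM in D and 65.4 and 20.1 CPM in E, which also entered the contrast. An example, chosen after its values were seen, is TRINITY_DN22804_c0_g1_i1_2, at 37.3, 66.7, 31.7 and 73.4 CPM in C of small oocytes 5 to 8 and at 1.68, 2.08 and 0.413 CPM in C of big oocytes 1, 2 and 3 (16, 9 and 1 counts). Its log2 difference in C was -5.04 ± 0.55 (SE, adjusted p = 0.000715, edgeR). In B it was also lower in big oocytes (log2 difference -3.56 ± 0.38, SE, adjusted p = 4.75e-05, edgeR). In E it was higher in big oocytes, at 5.88 ± 1.77 CPM (SD, n = 3) against 1.23 ± 0.450 CPM (SD, n = 4), and its contrast of C with the other sections was -5.08 ± 0.54 (SE, adjusted p = 1.86e-06).

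The identifiers of both sets differed in their last number. All 19 of the second set end in _2, as do 1 of the 11 of the first set, 45 of the 331 (13.6%) and 690 of the 24089 transcripts tested in C (2.86%). What this number stands for in the assembly is not given in the sources used here, and its part in the profile was not tested.

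**Figure D5:**
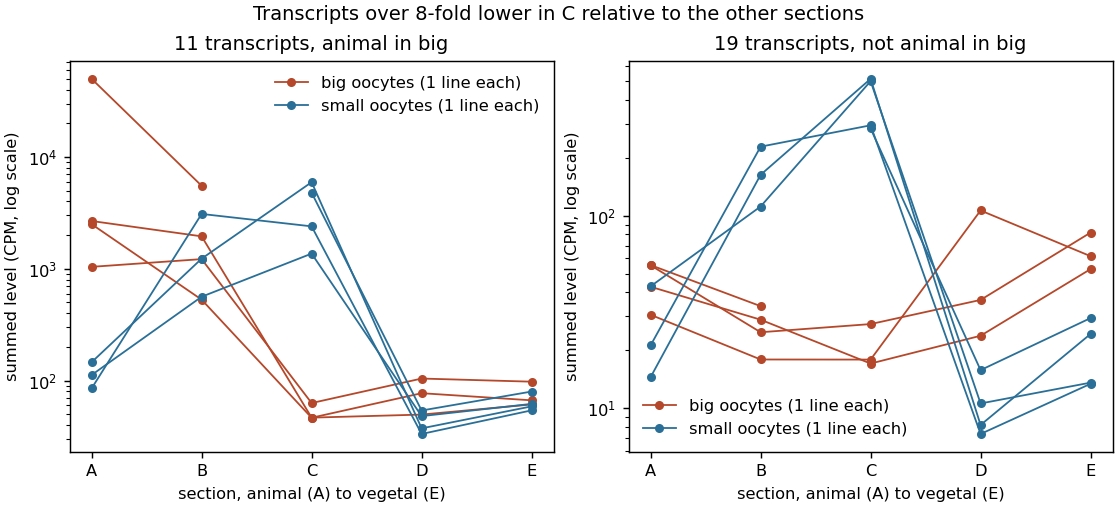
Summed level in CPM, on a log scale, of sets of 11 (left) and 19 (right) transcripts along sections A to E, 1 line per oocyte. Their difference between stages was over 8-fold lower in C than its mean in the other sections. In small oocytes both sets peak in B and C and drop in D, and in big oocytes the 11 stand at 529 to 49886 CPM in A and B and under 63 CPM in C, while the 19 stay under 107 CPM throughout.

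The 37 transcripts with a higher difference in C were changed less. Their median log2 difference between stages was 0.68 in C, -0.27 in A, 0.05 in B, 0.39 in D and 0.16 in E. TRINITY_DN52901_c1_g1_i3_1 was at 129, 216 and 203 CPM in C of big oocytes and at 94.7 to 103 CPM in C of small ones, while in A it was at 17.7 ± 2.86 CPM in big (SD, n = 4) and 105 ± 12.9 CPM in small oocytes (SD, n = 3). Its log2 difference between stages was 0.87 in C, and larger in D (1.59) and E (1.67). Its contrast was 0.95 ± 0.23 (SE, adjusted p = 0.0490, edgeR). TRINITY_GG_29797_c0_g1_i1_1 was at 112, 86.8 and 92.9 CPM in big and 47.5 to 76.8 CPM in small section C, and at 15.3 ± 6.08 (SD, n = 4) and 58.8 ± 10.6 CPM (SD, n = 3) in section A (contrast 1.04 ± 0.29, SE, adjusted p = 0.0971). In both the opposite change in A entered the contrast. For TRINITY_DN52901_c1_g1_i3_1 the difference was also negative in B (-1.03, adjusted p = 0.0869, edgeR), so that C lay between its neighbours B and D. Against B and D alone neither passed (adjusted p = 1.000), and both lost the call without big oocyte 3 (0.285 and 0.318) and without small oocyte 5 (0.164 and 0.297), 6 (0.175 and 0.276), 7 (0.141 and 0.110) or 8 (0.161 and 0.176), the second also without big oocyte 1 (0.332) or 11 (0.103).

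Called contigs of 1 assembled gene changed in the same direction more often than in opposite directions in the middle section. Of 23172 assembled genes with a tested contig, 868 had more than 1, 191 had at least 2 contigs called, and 57 of these 191 had calls in both directions against 134 in 1 direction. Over all transcripts tested in C, 20.7% were called higher and 21.3% lower. Whether 57 differs from the number for unrelated contigs was not tested. The pair farthest apart, chosen after its values were seen, was that of TRINITY_DN53959_c1_g1. Its contig i2_1 was at 28.1 to 32.2 CPM in big and 17.1 to 24.2 CPM in small section C (log2 difference 0.55 ± 0.14, SE, adjusted p = 0.00518, edgeR), and its contig i1_1 at 99.1 to 109 and 149 to 174 CPM (-0.57 ± 0.08, SE, adjusted p = 8.29e-06). Neither contig overlapped between stages. Reads that fit both contigs are divided between them by estimate, so such opposite calls are uncertain.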

How the data were processed

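RNA from 5 sections of single oocytes was depleted of ribosomal RNA and sequenced. Before deposit the authors cleaned the reads (Trimmomatic), discarded those of mitochondrial and ribosomal origin, and used kallisto 0.43.1 to assign the remainder to an assembled transcriptome. The deposited table used here holds estimated counts for 49027 transcripts, all whole numbers as deposited. It has 0 columns outside the series. No identifier (0 of 49027) matched the RefSeq table of 80041 genes. The deposited tables normalized with DESeq2 and the tables of totals were not used here.

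Counts were tested with edgeR 4.0.16 in R 4.3.3 (robust quasi-likelihood), with median-of-ratios scaling within the 7 section C libraries, for transcripts with a mean scaled count of at least 10. The contrast of C with A, B, D and E used all 35 libraries without an oocyte block, as the study's model between stages. Same-numbered libraries come from the same cell, and their deviations correlated with a mean r of 0.0974 (64 pairs) against -0.0344 between oocytes (180 pairs). CPM are counts relative to a scaled library of 1e+06, over the section C libraries for values of C and over all 35 for other sections and sums over lists. They measure composition and not absolute amount. Values per library used Python 3.11.15 and scipy 1.17.1. DESeq2 1.42.0, other scalings, filters, thinning and leaving out each oocyte were alternatives. The code was tested on simulated data.

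Named were the 3 markers and, with a mean scaled count of at least 100, counts in every C library and no overlap of stages, the 2 identifiers with the largest change per direction and comparison, plus the 1 per direction with the most counts where the other stage had 0. The comparison, lists and rule were chosen with earlier results of these data known.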

Additional observations from a re-analysis of the deposited data

Results flagged for a closer look

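The difference between stages in section C departed from its mean in the other sections, by the test of the difference itself (edgeR, adjusted p under 0.1), for these 6 of the transcripts described: TRINITY_DN46906_c1_g1_i1_1 by -10.08, TRINITY_DN42989_c0_g1_i2_1 by -8.70, TRINITY_DN46906_c1_g2_i1_1 by -7.84, TRINITY_DN22804_c0_g1_i1_2 by -5.08, TRINITY_DN52901_c1_g1_i3_1 by 0.95 and TRINITY_GG_29797_c0_g1_i1_1 by 1.04 on the log2 scale. Except for TRINITY_DN46906_c1_g2_i1_1, these were named by this contrast or, for TRINITY_DN22804_c0_g1_i1_2, picked from transcripts that had passed it. Their passing is therefore no further test. Of 14 alternatives, TRINITY_DN52901_c1_g1_i3_1 lost the call in 6 and TRINITY_GG_29797_c0_g1_i1_1 in 8. For TRINITY_DN52901_c1_g1_i3_1 the difference in C (0.87) lay between those in B (-1.03) and D (1.59). The value of TRINITY_DN46906_c1_g2_i1_1 was at the threshold (adjusted p = 0.0999, edgeR) and became 0.00295 without big oocyte 11. It was lost in 9 of 14 alternatives: without big oocyte 1 (0.319), 2 (0.145) or 3 (0.509), without small oocyte 5 (0.162), 6 (0.248), 7 (0.173) or 8 (0.160), with library totals (0.106) and against B and D only (0.731).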

How the results depend on the processing

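Within section C the numbers higher and lower ran from 4247 to 4649 and from 4428 to 4861 when 1 oocyte was left out. With a mean scaled count of at least 50, 3143 were lower, as fewer transcripts were tested, and 20 assembled genes had contigs called in both directions. For the contrast of C with the other sections, the numbers lower and higher were 520 and 157 with the oocyte as replicate block, 213 and 90 with library totals, 37 and 0 against B and D only, and 376 and 66 with DESeq2. Leaving out 1 oocyte gave 142 to 342 lower and 7 to 47 higher. The difference in detected transcripts ran from -235 to 45.0 and that in the share of the 10 most abundant from 0.0598 to 0.447 percentage points. The numbers over 8-fold, counted under each setting after seeing the data, were 580 higher and 794 lower with no filter, 7 and 22 with at least 50, and 28 and 64 after thinning to the smallest library. Of the alternatives for named transcripts, 184 of 191 kept their side of the threshold in C and 155 of 179 in the contrast with the other sections, 1 gained a call (dnd1 with the replicate block, adjusted p = 0.0126), and none reversed. The 179 include alternatives for transcripts that had not passed the contrast. Of the 6 that had, TRINITY_DN46906_c1_g2_i1_1 lost the call in 9 alternatives, TRINITY_GG_29797_c0_g1_i1_1 in 8 and TRINITY_DN52901_c1_g1_i3_1 in 6. The others of the 6 lost it in 0. The block changed no other call of a named transcript. Depth limits rare transcripts: those under a mean scaled count of 10 were not tested. Among those tested, the median absolute log2 difference of calls was 1.07 in the least abundant class and 0.40 in the most abundant.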
